A study of Mus musculus with 22 samples.

Results

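Expression of 9 genes that mark successive stages of adult neurogenesis was compared between Ts1Cje and wild-type mice, and between hippocampus and cortex. The genes were taken from a named list, by Entrez gene number: the progenitor gene Nes, the proliferation genes Mki67 and Top2a, the progenitor and commitment factors Eomes and Neurod1, the immature neuron factors Sox4 and Sox11, and the neuroblast genes Igfbpl1 and Dcx. All 9 were found among the 20239 genes with 1 symbol that were tested, out of 21225 features on the array. None of the 9 lies on chromosome 16, part of which is present in an extra copy in Ts1Cje.

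The study measured whole-transcriptome expression on Affymetrix mouse gene 1.0 ST arrays in dissected hippocampus and cerebral cortex, and asked which genes differ between genotypes in each region. The Ts1Cje mouse, which has a partial trisomy, is used to model Down syndrome. The 4 groups were hippocampus of 6 Ts1Cje mice, hippocampus of 5 wild-type (WT) littermates, and cortex of the same 6 Ts1Cje and 5 WT mice. All 11 animals were females of 8 to 10 weeks, bred from Ts1Cje males crossed back to C57Bl/6J females over several generations, and each gave 1 array per region. RNA was extracted with one kit from hippocampus and with another from cortex, so kit and region cannot be told apart. Each value is a log2 signal of a whole dissected region, in which fewer cells of a type and less RNA per cell cannot be told apart.

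In the adult rodent hippocampus, neural stem cells of the dentate gyrus divide to give intermediate progenitors, then migrating neuroblasts, and finally granule neurons that join the existing circuit. Nestin (Nes) is an intermediate filament protein of the stem cells, Eomes (also called Tbr2) is a transcription factor of the intermediate progenitors, and doublecortin (Dcx) is a microtubule-associated protein of neuroblasts and immature neurons. The second main germinal zone of the adult rodent brain, beside the lateral ventricle, supplies interneurons to the olfactory bulb, whereas the adult neocortex is not known as a neurogenic region.

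Of the 11 animals, Ts1Cje animal 64 and WT animal 60 gave arrays that stood apart in both regions. They correlated with the other arrays of the region at 0.985 (animal 64) and 0.991 (animal 60) in hippocampus and at 0.976 and 0.967 in cortex, against 0.995 to 0.996 and 0.996 to 0.997 for the other 9 arrays of each region. Their log2 signals also spread less, by the median absolute deviation. In hippocampus it was 2.05 (animal 64) and 2.21 (animal 60), against 2.35 to 2.42 for the other 9 arrays. In cortex it was 1.96 and 1.85, against 2.38 to 2.51. The array medians were 6.91 to 6.95 in hippocampus and 7.53 to 7.62 in cortex, so regions were compared after each array was centred on its own median; the result is called the centred signal. Son and Synj1, on the trisomic segment, were higher in every Ts1Cje animal than in every WT animal in both regions, by 0.45 and 0.41 on the log2 scale in hippocampus and by 0.44 and 0.43 in cortex. The genotype labels were checked by these values. With limma, both genes were called in hippocampus (adjusted p = 0.0444 for Son and 0.0209 for Synj1). Neither passed an adjusted p of 0.05 in cortex (limma, 0.686 and 0.0921), so a difference of that size could go uncalled there. As a check of the tissues, 8 of 9 hippocampal pyramidal neuron genes were called higher in hippocampus and 1 lower. Of 11 cortical projection neuron genes, 8 were called lower and 2 higher. Over all genes tested, 20.2% were called higher and 21.2% lower.

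No called difference between Ts1Cje and WT hippocampus was found for any of the 9 genes. With limma, 0 of 9 passed an adjusted p of 0.05, and 0 of 9 had an unadjusted p under 0.05, where 0.114% of all genes tested (23 of 20239) were called and 750 had an unadjusted p under 0.05. The differences, Ts1Cje minus WT, ran from -0.11 for Top2a to 0.047 for Eomes, with a median of -0.014 for the 9 genes and -0.0064 for all genes tested. Of the 9 differences, 1 lay above 0, where 46.3% of all genes did. Their median size without regard to sign was 0.046, against 0.050 for all genes. The adjusted p was 1 for each of the 9, and 0 of 9 were called under any of the 11 other settings or when any animal was left out. The setting without the dimmest genes tested only 5 of the 9. With 1 animal left out, 1 to 35 of all genes were called, so those fits could show little about the 9.

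Dcx, the neuroblast gene, had hippocampal log2 signals between 7.82 and 8.20 in Ts1Cje mice with a median of 7.99, against 7.88, 8.10, 8.03, 8.03 and 8.03 in WT mice. The groups overlapped, and the Ts1Cje values reached further on both sides, with 2 of 6 above and 1 below every WT value. The difference was -0.0055 ± 0.075 (SE), with a 95% interval from -0.17 to 0.16, which is 0.89 to 1.12 times the WT signal. For Igfbpl1, an insulin-like growth factor binding protein relative found in neuroblasts, the means were 5.94 ± 0.17 in Ts1Cje hippocampus (SD, n = 6) and 5.95 ± 0.076 in WT hippocampus (SD, n = 5), and the interval of the difference was -0.18 to 0.16.

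Neurod1, a basic helix-loop-helix factor of neuronal differentiation, ranged from 7.35 to 8.47 with a median of 8.32 in Ts1Cje hippocampus. In WT hippocampus its signals were 8.05, 8.14, 8.29, 8.56 and 8.39. The lowest Ts1Cje value belonged to animal 64, one of the 2 that stood apart, and the other 5 Ts1Cje animals lay within the WT range. The difference was -0.085 ± 0.19 (SE; 95% interval -0.49 to 0.32) with all animals, and it turned to 0.085 without animal 64. Neurod1 was among the more variable genes of the hippocampus, with a residual SD of 0.35 at the 96.7th percentile of all genes, so its interval is the widest of the 9.

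Eomes had a mean of 4.72 ± 0.12 in Ts1Cje hippocampus (SD, n = 6) and 4.67 ± 0.039 in WT hippocampus (SD, n = 5), a difference of 0.047 ± 0.060 (SE; 95% interval -0.084 to 0.18). Its signal was the same, 4.69, on 5 of the 11 hippocampus arrays, 3 of them Ts1Cje and 2 WT. Exact repeats of this kind occurred between hippocampus arrays for 51.9% of all features and between cortex arrays for 43.2%; among the 9 genes they occurred for 7 in hippocampus and for 0 in cortex. Sox11 and Sox4, related high-mobility-group factors of immature neurons, differed by -0.052 ± 0.098 and -0.046 ± 0.067 (SE). All but 1 of their Ts1Cje values, the Sox11 signal of animal 64, lay within the WT range.

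The proliferation genes and Nes likewise had no called difference. Top2a, the DNA topoisomerase of dividing cells, had signals from 4.89 to 5.38 with a median of 5.24 in Ts1Cje hippocampus, against 5.47, 5.35, 5.21, 5.20 and 5.21 in WT hippocampus. Its difference, -0.11 ± 0.089 (SE; 95% interval -0.30 to 0.089), was the largest of the 9, and 2 of 6 Ts1Cje values lay below the WT range. Mki67, which encodes the Ki-67 protein of cycling cells, differed by -0.014 ± 0.067 and Nes by -0.012 ± 0.10 (SE). The 95% interval of the Nes difference runs from -0.24 to 0.21, or 0.85 to 1.16 times the WT signal, and that of Mki67 from -0.16 to 0.13.

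**Figure D1:**
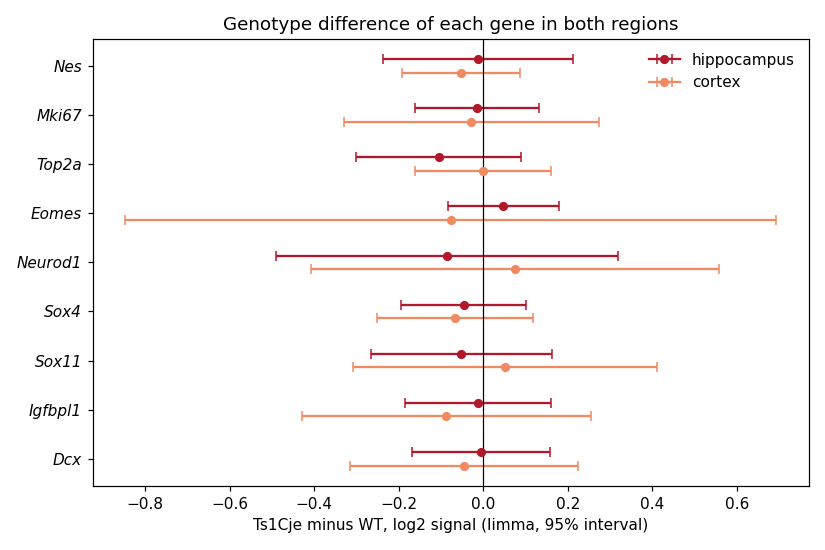
Difference between Ts1Cje and WT in log2 signal for each gene (horizontal axis), in hippocampus (dark red, upper mark of each pair) and cortex (orange, lower mark), as limma estimates with 95% intervals from 6 Ts1Cje and 5 WT animals. Every interval crosses 0, and the widest is that of Eomes in cortex, -0.85 to 0.69.

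In cortex the 9 genes likewise showed no called difference between Ts1Cje and WT. With limma 0 of 9 passed the adjusted p, and 0 of 9 had an unadjusted p under 0.05, where 0.00494% of all genes (1 of 20239) were called and 263 had an unadjusted p under 0.05. The differences ran from -0.088 for Igfbpl1 to 0.076 for Neurod1, with a median of -0.046 for the 9 genes and -0.0034 for all genes. Of the 9 differences, 2 lay above 0, where 48.5% of all genes did. The call stayed at 0 of 9 under the 11 other settings and without any 1 animal, although the number of called genes over all reached 50 with array weights. It was 1 to 7 with 1 animal left out, so those fits could show little about the 9. Without the dimmest genes, only 5 of the 9 were tested.

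Dcx signals in cortex were 9.26 to 9.91 with a median of 9.54 in Ts1Cje mice, against 9.44, 9.64, 9.61, 9.82 and 9.70 in WT mice. The highest and the lowest value were both Ts1Cje. The difference was -0.046 ± 0.12 (SE; 95% interval -0.31 to 0.22). Eomes ranged from 5.63 to 7.45 with a median of 6.32 in Ts1Cje cortex, against 6.50, 5.57, 6.37, 7.22 and 6.88 in WT cortex. The lowest and the highest animals of both genotypes lay over 1 log2 unit apart, and the interval of the difference, -0.85 to 0.69 around -0.077, was the widest among the 9 genes.

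Neurod1 was low in the cortex of animals 60 and 64, at 7.24 in Ts1Cje animal 64 and 7.20 in WT animal 60, while the other 9 animals had 7.98 to 8.29. The Neurod1 difference was 0.076 ± 0.22 (SE). Top2a differed by -0.00032 ± 0.073 and Nes by -0.052 ± 0.064 (SE), the narrowest intervals of the 9 in cortex. Mki67 was highest in the same 2 animals, at 6.98 in Ts1Cje animal 64 and 6.94 in WT animal 60, against 6.29 to 6.57 in the other 9. The log2 signals of these 2 cortex arrays spread less than those of the others, and the part of that spread was not tested.

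The genotype effect itself was not found to differ between regions for any of the 9 genes. For the difference of the Ts1Cje minus WT differences, hippocampus minus cortex, limma called 0 of 9 members and 0% of all genes (0 of 20239), with 0 of 9 members and 291 genes at an unadjusted p under 0.05. The estimates ran from -0.14 for Neurod1 (95% interval -0.78 to 0.50) to 0.15 for Eomes (95% interval -0.61 to 0.91). All 5 other settings, every fit with 1 animal left out and the fit without animals 60 and 64 also gave 0 of 9. Each of these fits called 0 genes over all, so the counts say little about the 9.

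Between the regions the 9 genes moved in both directions. After centring, limma called 2 of 9 higher in hippocampus than in cortex, Neurod1 and Nes, where 20.2% of all genes tested were called higher. It called 3 of 9 lower, Dcx, Eomes and Mki67, where 21.2% of all genes were called lower. The counts are near those background shares, so they do not set the 9 genes apart. The median size of the difference without regard to sign was 0.20 for the 9 genes and 0.16 for all genes. The plot of the genes by animal shows every value.

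**Figure D2:**
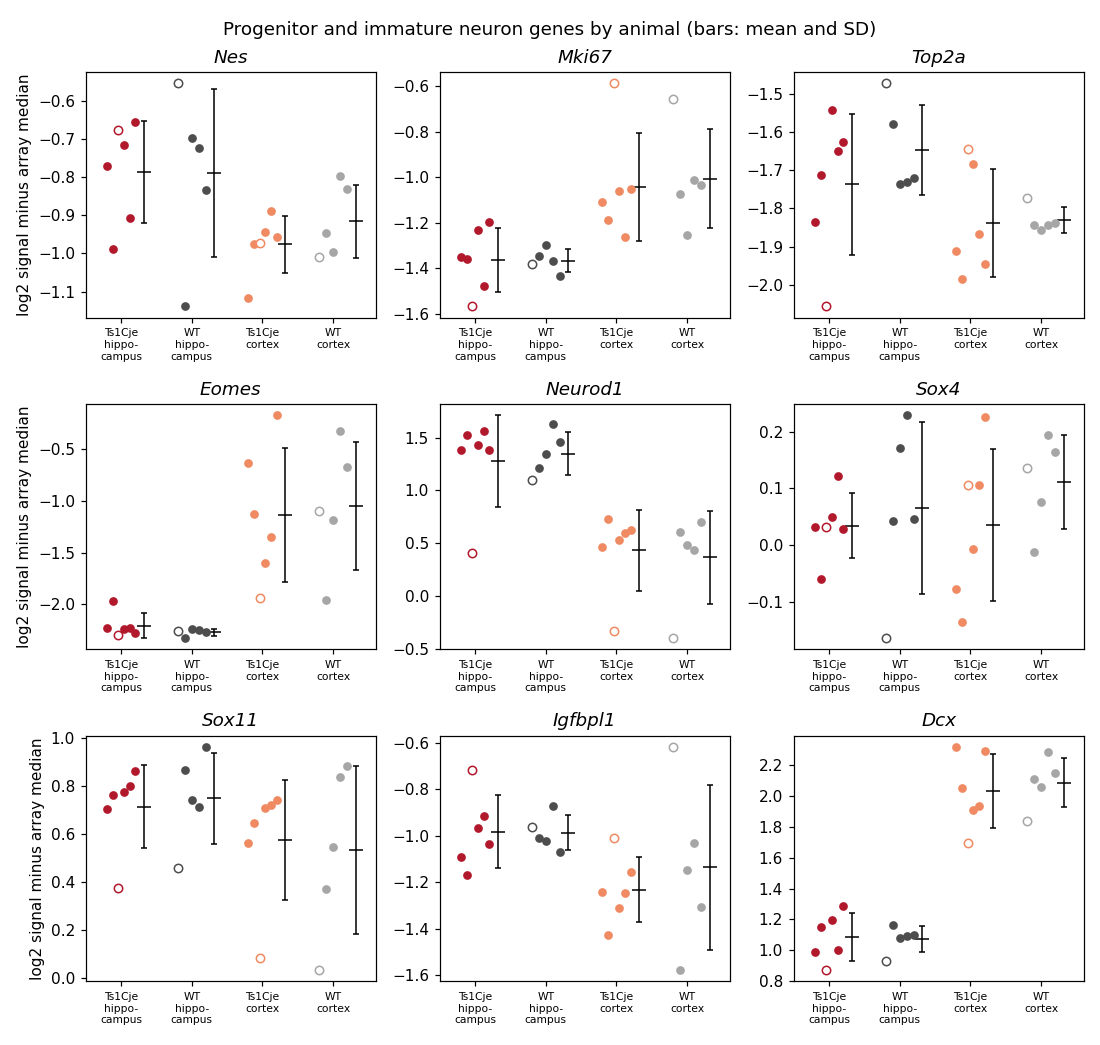
Centred log2 signal (log2 signal minus the array median, vertical axis) of each gene in Ts1Cje hippocampus (6 animals), WT hippocampus (5), Ts1Cje cortex (6) and WT cortex (5). Points are animals, open points are animals 60 and 64, and bars give the mean and SD; for Dcx and Eomes every hippocampus point lies below every cortex point, and for Neurod1 10 of 11 hippocampus points lie above every cortex point.

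Dcx was lower in hippocampus, the region with the neurogenic niche, than in cortex. Its centred signal was 0.87 to 1.29 with a median of 1.09 in hippocampus, against 1.70 to 2.32 with a median of 2.06 in cortex. The regions did not overlap, and all 11 animals had less Dcx signal in hippocampus than in their own cortex. The difference was -0.98 ± 0.073 (SE, limma, adjusted p = 4.08e-10), so that cortex was 1.98-fold higher. By group the means were 1.08 ± 0.16 in Ts1Cje hippocampus, 1.07 ± 0.086 in WT hippocampus, 2.03 ± 0.24 in Ts1Cje cortex and 2.09 ± 0.16 in WT cortex (SD, n = 6 Ts1Cje and 5 WT), and within a region the genotypes did not differ beyond that spread.

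Eomes was likewise lower in hippocampus. It had centred signals of -2.33 to -1.97 with a median of -2.25 in hippocampus, against -1.96 to -0.17 with a median of -1.12 in cortex. The highest hippocampus array, of Ts1Cje animal 63, and the lowest cortex array, of WT animal 62, nearly met. The difference was -1.15 ± 0.18 (SE, limma, adjusted p = 2.6e-05), 2.21-fold higher in cortex, and it ran from -2.11 to -0.36 in Ts1Cje animals and from -1.93 to -0.37 in WT animals. Eomes was among the 6746 dimmest genes by mean signal over all arrays.

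Mki67 was lower in hippocampus by 0.34 on average. The centred signals were -1.57 to -1.20 with a median of -1.36 in hippocampus, against -1.26 to -0.59 with a median of -1.06 in cortex. On the hippocampus side, 9 of 11 arrays lay below every cortex array, and all 11 animals had the lower signal in hippocampus. The difference was -0.34 ± 0.075 (SE, limma, adjusted p = 0.000916), and it was -0.23 (adjusted p = 0.000214) without animals 60 and 64, which had the highest cortex signals.

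Top2a, the other proliferation gene, did not follow Mki67. Its centred signal was -2.06 to -1.47 with a median of -1.71 in hippocampus, against -1.98 to -1.64 with a median of -1.84 in cortex. The regions overlapped, and 10 of 11 animals had the higher signal in hippocampus; Ts1Cje animal 64 was the exception. The difference of 0.14 ± 0.059 (SE) missed the threshold (limma, adjusted p = 0.0575), but the gene was called without animal 64 (0.19, adjusted p = 0.0021). The difference between Mki67 and Top2a was not tested.

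Neurod1 was higher in hippocampus. Its centred signal was 0.40 to 1.63 with a median of 1.38 in hippocampus, against -0.40 to 0.73 with a median of 0.53 in cortex. The lowest hippocampus array was that of animal 64 and the lowest cortex array that of animal 60. All 11 animals had the higher signal in hippocampus, by 0.73 to 0.97 in Ts1Cje mice and by at least 0.60 in WT mice. The difference was 0.91 ± 0.15 (SE, limma, adjusted p = 5.42e-05), or 1.88-fold. Its direction was opposite to that of Dcx and Eomes.

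Nes was called higher in hippocampus by a small margin. Its centred signal was -1.14 to -0.55 with a median of -0.72 in hippocampus, against -1.12 to -0.80 with a median of -0.96 in cortex. The arrays overlapped, and 7 of 11 animals had the higher signal in hippocampus. The difference was 0.16 ± 0.060 (SE; adjusted p = 0.0398 with limma). The call was lost, at adjusted p of 0.0575 to 0.118, when animal 60, 61, 64, 65, 87, 95 or 97 was left out, and at 0.128 without both 60 and 64. Nes is also known in vessel cells. Of 11 endothelial markers 0 were called higher and 5 lower in hippocampus, and of 10 pericyte and mural cell markers 2 were called higher (Acta2, 0.49, and Cspg4, 0.13) and 1 lower; their part in the Nes difference was not tested.

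Sox11, Igfbpl1 and Sox4 did not pass the threshold. Sox11 differed by 0.18 ± 0.10 (SE, limma, adjusted p = 0.176) and was higher in hippocampus in 10 of 11 animals. Igfbpl1 differed by 0.20 ± 0.085 (SE, limma, adjusted p = 0.0656), was higher in hippocampus in 10 of 11 animals, and passed the threshold without animal 60 (0.26, adjusted p = 0.0052). Sox4 differed by -0.024 ± 0.051 (SE), with a 95% interval from -0.13 to 0.081, and 7 of 11 animals had the higher signal in hippocampus.

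Using each animal's pair of arrays as a replicate block raised the number of members called. With the animal as a fixed block 7 of 9 were called, the 5 above and also Sox11 (adjusted p = 0.0139) and Igfbpl1 (adjusted p = 0.0198). With the animal as a random block 8 of 9 were called, all but Sox4; Top2a had an adjusted p of 0.0203, Igfbpl1 0.0127, Sox11 0.0383 and Nes 0.0118. On the deposited values, without centring, the median of all genes lay 0.63 lower in hippocampus (-0.634), and 299 genes were called higher and 18986 lower, against 4097 and 4282 after centring. Nes (-0.47), Top2a (-0.49), Sox11 (-0.45) and Igfbpl1 (-0.43) then had the opposite sign, and Neurod1 (0.28, adjusted p = 0.0778) was no longer called, while Dcx (-1.61) and Eomes (-1.78) stayed lower.

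**Figure D3:**
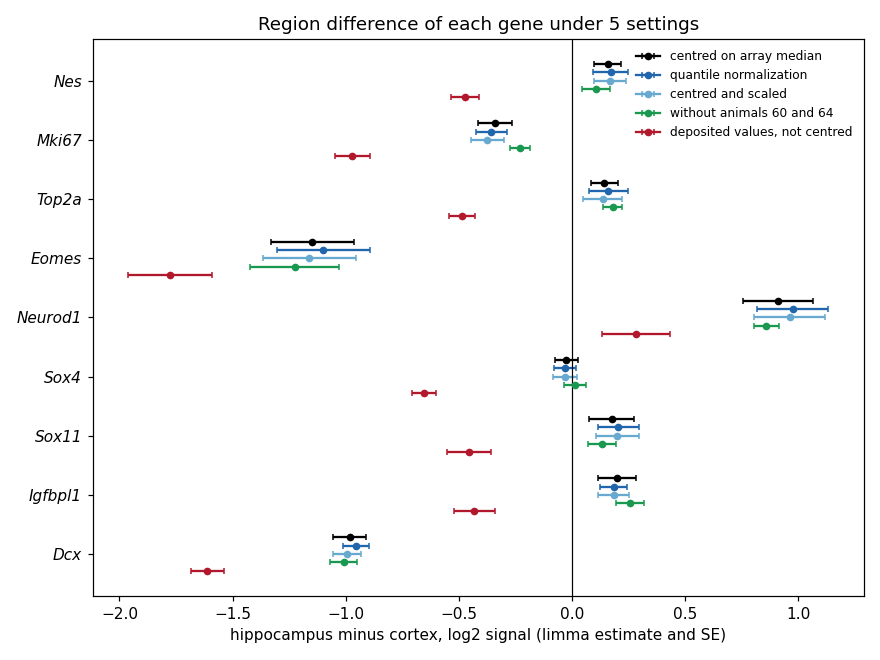
Difference between hippocampus and cortex in log2 signal (horizontal axis, limma estimate with SE) for each gene under 5 settings, with centred arrays in black, quantile normalization in dark blue, centred and scaled arrays in light blue, centred arrays without animals 60 and 64 in green, and deposited values that were not centred in red. The red points lie to the left of the others by about the shift of all genes, and Dcx, Eomes and Mki67 lie left of 0 under all 5 settings.

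Upstream sequences are shown for the 4 genes with the firmest region differences and for Top2a, whose estimate had the opposite sign to that of Mki67. They were taken from the RefSeq promoter table for GRCm38.p6, which held 8 of the 9 genes; Igfbpl1 is named only. Each is the 250 bases before the annotated start, written along the gene's strand. Capitals mark CCAAT and TTTGAA on either strand, read as ATTGG and TTCAAA on the reverse one. CCAAT is the box bound by NF-Y, and TTTGAA is the core of an element known from promoters of cell cycle genes. The lines give Neurod1 (chr2:79456637-79456886, minus strand), Dcx (chrX:143933220-143933469, minus strand, the first of 2 entries), Eomes (chr9:118477939-118478188, plus strand), Mki67 (chr7:135716380-135716629, minus strand) and Top2a (chr11:99024190-99024439, minus strand).
Neurod1: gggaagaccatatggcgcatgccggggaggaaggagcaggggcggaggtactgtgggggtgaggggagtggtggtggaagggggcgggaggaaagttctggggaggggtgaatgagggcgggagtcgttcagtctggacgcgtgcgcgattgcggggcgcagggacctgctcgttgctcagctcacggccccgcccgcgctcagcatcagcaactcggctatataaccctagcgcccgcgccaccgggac
Dcx: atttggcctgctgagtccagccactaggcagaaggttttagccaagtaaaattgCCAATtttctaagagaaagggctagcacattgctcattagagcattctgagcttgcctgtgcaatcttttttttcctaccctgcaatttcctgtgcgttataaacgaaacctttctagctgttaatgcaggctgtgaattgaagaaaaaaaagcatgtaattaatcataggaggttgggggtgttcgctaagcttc
Eomes: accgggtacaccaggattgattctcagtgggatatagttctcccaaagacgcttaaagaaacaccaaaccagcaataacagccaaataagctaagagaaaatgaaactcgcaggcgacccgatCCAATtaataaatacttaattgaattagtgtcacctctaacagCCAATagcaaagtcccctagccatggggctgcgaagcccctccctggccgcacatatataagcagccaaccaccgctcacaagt
Mki67: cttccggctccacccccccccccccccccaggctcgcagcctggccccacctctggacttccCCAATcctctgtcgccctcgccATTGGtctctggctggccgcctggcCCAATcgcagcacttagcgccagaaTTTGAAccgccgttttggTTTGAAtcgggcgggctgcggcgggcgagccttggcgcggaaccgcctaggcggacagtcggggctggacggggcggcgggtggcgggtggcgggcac
Top2a: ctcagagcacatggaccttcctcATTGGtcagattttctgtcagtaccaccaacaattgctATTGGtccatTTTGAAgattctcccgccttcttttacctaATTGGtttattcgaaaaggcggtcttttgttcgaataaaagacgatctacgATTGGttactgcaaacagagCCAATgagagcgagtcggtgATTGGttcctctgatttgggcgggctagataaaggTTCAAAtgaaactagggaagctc

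The proliferation genes held both motifs in these windows. Top2a had 6 copies of CCAAT and 2 of TTTGAA, and Mki67 had 3 and 2. Of the 32851 promoters in the table, 33.8% held CCAAT at least once and 0.84% at least 4 times, while 16% held TTTGAA and 1.81% held it at least 2 times. Sox4 had 4 copies of CCAAT, Eomes 2, and Dcx and Sox11 1 each, and Sox11 had 1 copy of TTTGAA; Neurod1 and Nes had neither. The E box CANNTG, a motif bound by basic helix-loop-helix factors, was found 3 times in Top2a, 2 times in Sox11 and 1 time each in Sox4 and Neurod1, against 66.2% of all promoters with at least 1. The Top2a copy 21 bases before the start overlaps the TTCAAA that begins 23 bases before it. Mki67 and Top2a shared both motifs, and the part of the motifs in the region differences was not tested.

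Eomes varied more between animals in cortex than nearly all other genes. Its residual SD there was 0.63, at the 99.4th percentile of all genes, against 0.092 at the 22.7th percentile in hippocampus. The cortex signals were highest in Ts1Cje animal 97 (-0.17) and WT animal 95 (-0.32) and lowest in Ts1Cje animal 64 (-1.94) and WT animal 62 (-1.96), so both genotypes held high and low animals. With genotype means removed, the genes most like Eomes over the 11 cortex arrays, among 10120 brighter genes searched, were Cdhr1 (r = 0.965), Cacng5 (r = 0.964), Calb2 (r = 0.956), Ptpro (r = 0.953) and Dlx2 (r = 0.931); this search in cortex was added after the values were seen. Without animals 60 and 64 the r for Cdhr1 was 0.973 over 9 arrays.

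Cdhr1, a cadherin-related protein, and Doc2g are known from mitral and tufted neurons of the mouse olfactory bulb, where Eomes is also expressed in the adult. Th and Calb2 are known from interneurons there. Cdhr1 ranged from -1.33 in WT animal 62 to 1.34 in WT animal 95 in cortex, against -0.79 to -0.31 in hippocampus. Over the 11 cortex arrays, Eomes and Cdhr1 correlated at r = 0.958 (rho = 0.936), and at 0.947 without the 2 animals farthest from the Cdhr1 median. The same r was 0.927 for Doc2g and 0.848 for Th; Doc2g and Th were chosen after their values were seen. In hippocampus the r with Cdhr1 was 0.252 over 11 arrays, where Eomes had little spread (residual SD 0.092), so this r shows little. These are descriptions of values that share their arrays, and the part of olfactory cells in the Eomes difference between regions was not tested.

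**Figure D4:**
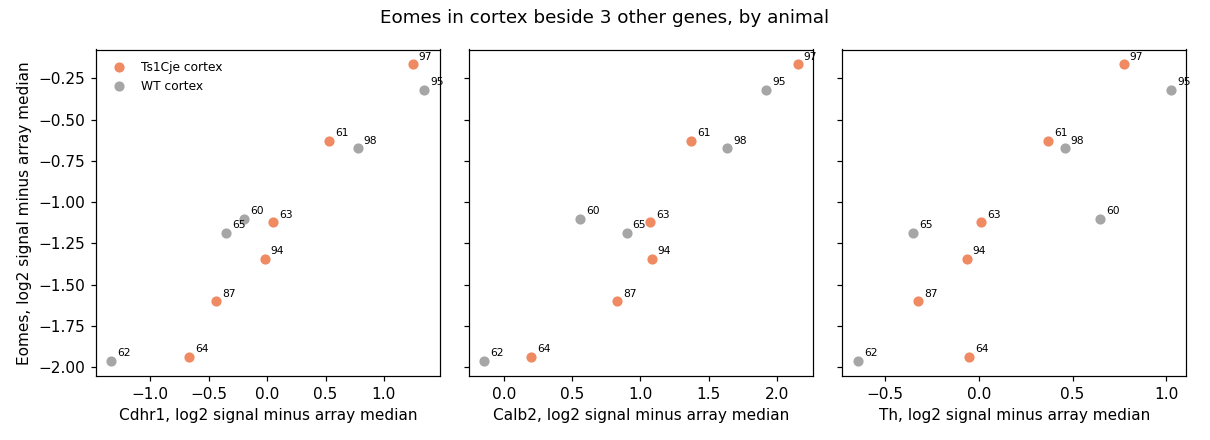
Centred log2 signal of Eomes (vertical axis) against Cdhr1, Calb2 and Th (horizontal axes) in the cortex of 6 Ts1Cje (orange) and 5 WT (grey) animals, each point labelled with its animal number. Animals 97 and 95 are at the upper right and 62 and 64 at the lower left for Cdhr1 and Calb2, with both genotypes at either end.

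Dcx in cortex moved with Eomes to a lesser degree, at r = 0.762 over 11 arrays and 0.793 over the 9 without animals 60 and 64. Its r with Cdhr1 was 0.663 over 11 arrays and 0.655 over 9. In the 2 animals with the least Eomes signal in cortex, Dcx was 1.70 in Ts1Cje animal 64 and 2.11 in WT animal 62, both above the highest hippocampus value of 1.29. The part of olfactory cells in the Dcx difference between regions was not tested.

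Among the members themselves, the pair with the highest r over the 11 hippocampus arrays was Dcx and Mki67, at 0.806. It had r = 0.751 over the 9 without animals 60 and 64. In cortex the same pair had r = -0.554 over 11 arrays and 0.494 over 9. In cortex, Neurod1 and Mki67 had r = -0.892 over 11 arrays and -0.0070 over 9, so this relation rests on animals 60 and 64, which had the lowest Neurod1 and the highest Mki67 signals. Across the hippocampus arrays, with genotype means removed, the genes most like each member were led by Atp9a for Dcx (r = 0.92 over 11 arrays and 0.966 over 9), Ncoa7 for Sox11 (0.958 and 0.959), Sez6l for Sox4 (0.973 and 0.957) and Tmem144 for Neurod1 (0.929 and 0.938). They were led by Fam126a for Eomes (0.892 and 0.964), Tomm40 for Igfbpl1 (0.928 and 0.898), Ednrb for Mki67 (0.914 and 0.942), Psmb10 for Top2a (0.907 and 0.947) and Fitm2 for Nes (0.936 and 0.928). The Eomes r may rest largely on Ts1Cje animal 63, at a log2 signal of 4.953 against 4.637 to 4.686 in the other Ts1Cje animals. No r was taken without that animal. No member led the list of another, but only genes at or above the median hippocampus signal were searched. Eomes, Igfbpl1, Mki67, Top2a and Nes lie below it, so they could not lead a list. With 11 arrays and 10120 genes searched, such values describe these arrays only.

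The wider gene lists of the same stages, without the 9 genes, also held genes called in either direction between the regions. Over all genes tested, 20.2% were called higher in hippocampus and 21.2% lower, and the list counts are to be read beside these shares. Of 12 genes of mature dentate granule neurons, 8 were called higher in hippocampus and 1 lower, with a median difference of 1.19 against -0.0040 for all genes. Lct (2.48) and Dsp (2.41) led, and Sema5b, a semaphorin, was lower (-0.60). Of 25 neuroblast and immature neuron genes, 8 were higher and 5 lower, with a median of 0.073. Prox1, the homeobox factor of granule neuron identity, was 3.46-fold higher, while Gap43, a growth cone protein (-0.37), and Dclk1, a relative of Dcx (-0.34), were lower.

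Of 20 neural stem cell and radial glia-like genes, 9 were called higher in hippocampus and 1 lower, where 20.2% and 21.2% of all genes were. The list median was 0.073. Gfap (1.32), the filament protein of astrocytes and radial glia-like cells, and Hopx (1.24) led, and Pax6 was lower (-0.25). All 10 choroid plexus genes (1.03 to 2.96) and all 9 ependymal genes (0.38 to 1.12) were also higher in the hippocampus samples, and 4 of 9 astrocyte genes were higher and 2 lower; the part of these cells in the stem cell list was not tested. Of 11 intermediate progenitor genes, 1 was higher (Mfap4, 0.58) and 2 were lower (Elavl4, -0.60; Dll3, -0.20), with a median of 0.011.

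Of 36 S phase and mitosis genes, 5 were called higher in hippocampus and 9 lower, with a median of -0.053. Tyms, the thymidylate synthase of DNA synthesis (0.49), and Birc5 (0.34) were the highest, and E2f1, a transcription factor of S phase entry (-0.63), and Prc1 (-0.60) the lowest. These counts are to be read beside the 20.2% of all genes called higher and the 21.2% called lower. Of 10 genes of subventricular and olfactory interneuron neuroblasts, 1 was higher (Etv1, 0.36) and 6 were lower, among them Th (-1.12) and Dlx6 (-0.94), with a median of -0.35.

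Of 25 ligands and receptors of the neurogenic niche, 9 were called higher in hippocampus and 6 lower, where 20.2% and 21.2% of all genes were. The list median was 0.057. The receptors Fgfr1 (0.89) and Cxcr4 (0.65) were higher, and the growth factor gene Vegfa (-0.53) and Nog, which encodes the bone morphogenetic protein inhibitor noggin (-0.47), were lower.

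**Figure D5:**
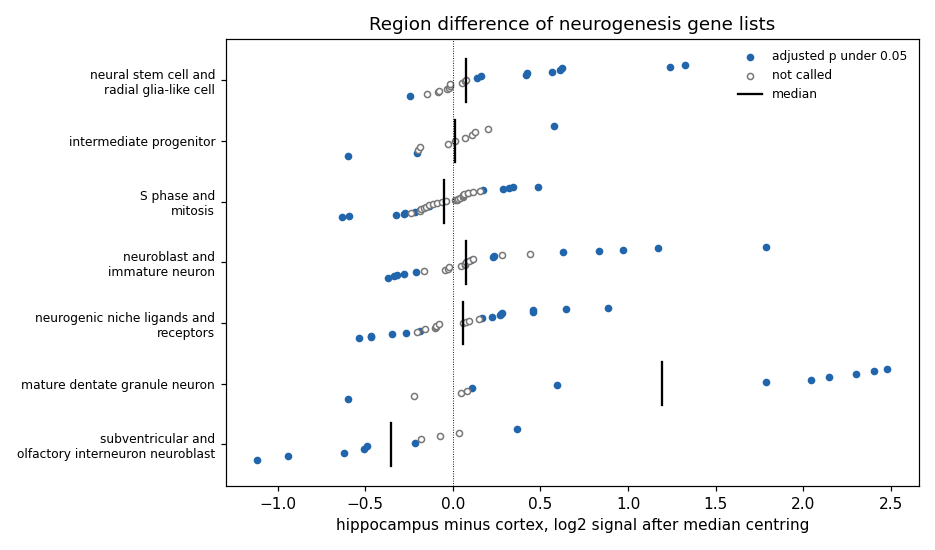
Difference between hippocampus and cortex in centred log2 signal (horizontal axis) for the genes of 7 lists of neurogenic stages and the niche, 1 point a gene; filled blue points had a limma adjusted p under 0.05, open points did not, and the black bar is the list median. The dentate granule neuron list has the median farthest to the right, 1.19, and the subventricular and olfactory list the one farthest to the left, -0.35.

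None of the genes of these 7 lists was called between Ts1Cje and WT in either region (0 genes, limma). In hippocampus, 4 of 20 stem cell genes had a difference above 0, where 46.3% of all genes did, and the list median was -0.076, against -0.0064 for all genes. The median was -0.12 for the dentate granule list, with 3 of 12 above 0. The neuroblast and immature neuron list had 7 of 25 above 0 (median -0.033), and the niche list 6 of 25 (median -0.027). Medians of the intermediate progenitor (0.014), S phase and mitosis (0.0024) and olfactory interneuron (0.030) lists lay above 0. Several marker lists also lay below 0. Of these, 2 of 9 astrocyte genes (median -0.049), 1 of 10 pericyte and mural cell genes (-0.088), 0 of 9 ependymal genes (-0.086) and 0 of 10 choroid plexus genes (-0.22) were above 0. The stem cell list holds genes such as Gfap and Slc1a3 that astrocytes also express, and the part of these cells was not tested. Within their own lists the lowest p belonged to Notch2 (-0.20, unadjusted p = 0.00889), Ccnd1 (-0.16, unadjusted p = 0.0128), Lct (-0.26, unadjusted p = 0.0128) and Dlx2 (0.13, unadjusted p = 0.0414), each with an adjusted p of 1. Among the cell cycle genes the estimates pointed both ways, since Tyms, named here after its value was seen, differed by 0.34 (unadjusted p = 0.0171, adjusted p = 1). Mfap4 (-0.16), Draxin (-0.21) and Ptch1 (-0.10) had the lowest p of their lists without reaching an unadjusted p of 0.05. In the hippocampus, 3 stem cell genes, 3 cell cycle genes, 3 granule neuron genes and 1 olfactory list gene had an unadjusted p under 0.05, and 0 genes of the other 3 lists did.

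In cortex, 21 of 25 neuroblast and immature neuron genes and 18 of 25 niche genes had a difference above 0, where 48.5% of all genes did. Their medians were 0.053 and 0.032, against -0.0034 for all genes, and 0 of them had an unadjusted p under 0.05. Markers of other cell types lay on the same side, with 8 of 9 oligodendrocyte genes (median 0.066), 7 of 9 microglia genes (median 0.086) and 8 of 11 endothelial genes (median 0.064) above 0, and their part was not tested. The cell cycle gene Ccnd2 (-0.19, unadjusted p = 0.0199) and the granule neuron gene Plk5 (-0.18, unadjusted p = 0.0114) were the only 2 list genes with an unadjusted p under 0.05 in cortex, each with an adjusted p of 1. The lowest p of the other lists belonged to Lfng (-0.14), Btg2 (0.33), Neurod4 (-0.28), Wnt3 (0.18) and Sp8 (-0.25).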

How the data were processed

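Whole-transcriptome expression was measured in 22 arrays from 11 animals, 1 per region, in 4 groups. RMA, which corrects background, normalizes and summarizes probes, is the tool named in the submitters' processing notes. The deposited values are log2 signals, 1 per array and Entrez gene feature. Its version, its probe definition and its handling of the 2 regions (together or apart) were not given in the sources used here. Features were named through the platform's gene table and RefSeq GRCm38.p6: 20239 carried 1 symbol and a gene number found in RefSeq, and were tested. The other 986 lacked a single symbol or a RefSeq gene number. The titles of 2 arrays give WT animal 60 where their descriptions give 61, and the titles were used.

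Models were fitted with lmFit and eBayes of limma 3.58.1 (R 4.3.3) and tested on simulated data. Tests were two-sided, p-values were adjusted by Benjamini-Hochberg over the 20239 genes, and a gene was called when its adjusted p was under 0.05. Genotype was fitted within each region on the deposited values. The region difference and the difference of genotype effects were fitted on all 22 arrays in 4 groups, each array centred on its median. P-values measure the spread between arrays within groups, which in the genotype fits is the spread between animals. The main fits of the region difference and of the genotype effects between regions left out the pairing of arrays by animal. The number of arrays limits the precision. No filter was applied to dim genes; 5 of the 9 members lie above the 6746 dimmest genes, and Eomes, Igfbpl1, Mki67 and Top2a do not.

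Pairing comes from the labels, which give an animal the same number in both regions. With the mean of each group taken out, both arrays of an animal correlated at a median r of 0.265 (0.0523 to 0.761), above 0.1 in 9 of 11 animals, and a random block gave a consensus correlation of 0.437. The genotype groups share no animals. No 2 arrays held identical values.

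All 9 members were named in every comparison. From each of 7 pathway lists the rule took up to 2 genes with the largest called difference in each direction between regions, any called gene between genotypes, and the gene with the lowest p. For each member it took the genes most correlated over the hippocampus arrays. Of the 258 entries in those lists and the 11 marker lists, 246 were measured. The members and lists were chosen with earlier results of these data known.

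The alternatives were a trend and robust prior, array weights, quantile normalization, median centring or its absence, scaling to a common spread, leaving out those dim genes, testing unnamed features too, a threshold of 0.1, a single fit, the animal as a replicate block, the animal number series as a covariate, 1 genotype alone, each animal left out, and animals 60 and 64 left out together.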

Additional observations from a re-analysis of the deposited data

Results flagged for a closer look

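Of 36 sets of values checked (9 genes in 4 groups), 8 held an animal that lay far from the rest of its group, and 6 of these were animals 60 or 64. Chance alone gives such an animal in about 1 in 20 groups. The values are log2 signals.

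Neurod1 was lowest in Ts1Cje animal 64 in both regions, at 7.349 in hippocampus, where the other Ts1Cje animals had 8.293 to 8.473, and at 7.238 in cortex, where they had 8.023 to 8.287. It was also lowest in WT animal 60 in cortex, at 7.201, against 7.977 to 8.258 in the other WT animals. Sox11 was lowest in Ts1Cje animal 64 as well, at 7.32 in hippocampus, against 7.617 to 7.777, and at 7.645 in cortex, against 8.116 to 8.359 in the other Ts1Cje animals. Top2a was highest in WT animal 60 in cortex, at 5.828, against 5.691 to 5.715. The part of the narrower signal spread of these animals' arrays was not tested.

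Away from those animals, Eomes was highest in Ts1Cje animal 63 in hippocampus, at 4.953, against 4.637 to 4.686, and Nes was lowest in Ts1Cje animal 61 in cortex, at 6.437, against 6.583 to 6.663.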

How the results depend on the processing

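No member was called between genotypes, or for the difference of the genotype effects, under any alternative run. The uncalled member differences changed sign in 29 of 194 values in hippocampus, 21 of 194 in cortex and 12 of 153 for the difference between regions. Of 203 region values, 170 kept the call, 14 lost it, 15 gained it and 4 were reversed. The sign changed in 6 of the values, in 5 members.

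Between regions the members called, 5 in the report, were 3 with dim genes left out (5 members then tested), 8 without centring and 8 with a random replicate block for the animal, and 4 to 5 with 1 animal left out. Without centring the sign turned for Igfbpl1 (-0.4306), Nes (-0.4712), Sox11 (-0.4539) and Top2a (-0.4868), by construction, since the shift of all genes is then included. The genes called over all, 8379, were 13685 with array weights, 19285 without centring, 4458 in WT animals alone, 13253 without animals 60 and 64, and 7378 to 9723 with 1 animal left out; the fixed replicate block gave 10925.

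In hippocampus the 23 genes called between genotypes became 54 with array weights, 37 without animals 60 and 64, and 1 to 35 with 1 animal left out (35 without 64, and 1 without 61, 62, 65, 87, 97 or 98). The split of 21 higher and 2 lower became 42 and 12 with array weights. In cortex the 1 gene called became 3 with the trend and robust prior, with dim genes left out or at adjusted p under 0.1, 13 after quantile normalization, 23 in a single fit with or without the replicate block, 32 without animals 60 and 64, 50 with array weights, and 1 to 7 with 1 animal left out (2 without 60, 7 without 64). The cause of these changes was not tested. The genotype groups share no animal numbers, and no member was called between genotypes with or without the block. Eomes, Igfbpl1, Mki67 and Top2a are dim, which limits what their differences show.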
